A study of Mus musculus with 16 samples.

Results

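The S100 genes encode small calcium-binding proteins that act mostly as dimers. The family was taken as 10 genes chosen by name, *S100a1*, *S100a4*, *S100a6*, *S100a8*, *S100a9*, *S100a10*, *S100a11*, *S100a13*, *S100a14* and *S100a16*. All 10 were in the count table of 14474 genes. On binding calcium through a pair of EF hands, most S100 proteins expose a surface that grips a partner, often an annexin, a myosin or an enzyme, and some are also released and bind receptors such as TLR4 and RAGE. In keratinocytes S100A6, S100A10 and S100A11 are abundant partners of annexins, whereas S100A8 and S100A9, the calgranulins, are known for their rise in wounded and inflamed epidermis, where their dimer, calprotectin, binds zinc and manganese. S100A10 is an exception in the family, since its EF hands do not need calcium to hold annexin A2.

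RNA was sequenced from immortalized mouse keratinocytes of 2 lines. MKα3− cells lack the α3 integrin subunit and so the laminin receptor integrin α3β1, and MKα3+ cells are the same null cells in which a human α3 subunit was put back, so the line contrast is that of 1 null line with 1 rescued line. Each line received vehicle (PBS with glycine and sodium azide) or laminin-332 (LN332), the main laminin under the epidermis, at 0.02 mg/mL for 16 to 24 h, and each of the 4 groups held 4 libraries. All cells were grown on collagen at low calcium, and no source used here says whether replicates were separate cultures, so the p-values measure the spread between these libraries, which may be technical.

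Total counts ran from 21735708 to 29338370, with a median of 27036993. The mouse *Itga3* gene did not tell the lines apart (211 to 317 CPM, counts scaled to library size, in MKα3− and 211 to 314 in MKα3+ libraries), and the human subunit is not in a mouse gene table. Keratinocyte markers were high in all 16 libraries, with 12 of 12 in the table and a summed level of 12477 to 26688 CPM. They were not all even between the lines. By the limma-voom calls defined below, 2 were lower and 0 higher in MKα3+ vehicle (7.56% and 10.9% of all genes), *Lamb3* and *Perp*. In LN332 4 were lower and 0 higher (8.92% and 11.7%), the same pair with *Krt5* and *Trp63*. Of 15 myeloid markers 11 were in the table, with sums of 47.6 to 125 CPM in MKα3− and 99.0 to 428 CPM in MKα3+ libraries, and the neutrophil genes *Ngp*, *Camp*, *Mpo* and *Elane* were not listed in it. The macrophage markers *Lyz2* and *Adgre1* stood at 229 to 237 and 34.5 to 35.2 CPM in 3 libraries (MKα3+ vehicle replicates 3 and 4 and MKα3+ LN332 replicate 4), against 3.61 to 77.4 and 0.106 to 10.4 CPM in the other 13. Not every listed marker followed this pattern. *Itgam* did (25.1 to 27.8 against 0.319 to 8.99 CPM), whereas *Ltf* (13.2 to 21.0 CPM) lay within 2.08 to 31.2 CPM. *Cd68* means were alike in the lines (28.0 and 29.6 CPM in MKα3− and MKα3+ vehicle). *Csf1r* was at 7.15 to 15.8 CPM in MKα3− and 17.8 to 46.3 CPM in MKα3+ vehicle. In LN332 it was at 16.9 to 18.8 and 21.6 to 60.9 CPM. Sums for fibroblast (6 of 9 markers in the table), melanocyte (2 of 7) and endothelial (4 of 5) lists stayed between 3.33 and 42.0 CPM. In bulk RNA, fewer cells of a type and less RNA per cell cannot be told apart.

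The 10 genes lie on mouse chromosome 3 (build GRCm38.p6, RefSeq). From *S100a1* to *S100a9*, 8 of them fall within chr3:90511034-90695721, and *S100a11* and *S100a10* lie at chr3:93520496-93564645, 2.82 Mb further along and past the genes of the epidermal differentiation complex. *S100a1* (minus strand) and *S100a13* (plus strand) overlap by 98 bases at their starts, and whether counting used strand is not given in the sources used here, so reads from this overlap cannot be told apart. The exons of *S100a4* overlap those of a predicted gene, *Gm42674*, on the same strand.

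The 250 bases before the annotated start (RefSeq, GRCm38.p6, 5′ to 3′ on the strand of the gene) are shown for the calgranulin pair and for *S100a11*. Levels of the pair went up and down together between replicates, and *S100a11* is an abundant member with a smaller spread than theirs. Capitals mark exact matches to 4 searched motifs, read on both strands.
S100a8, chr3:90668821-90669070, plus strand: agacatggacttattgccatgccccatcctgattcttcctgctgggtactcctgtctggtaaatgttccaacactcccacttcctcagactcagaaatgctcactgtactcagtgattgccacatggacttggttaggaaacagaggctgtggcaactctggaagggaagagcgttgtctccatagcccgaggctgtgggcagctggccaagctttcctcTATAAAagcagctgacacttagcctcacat
S100a9, chr3:90695722-90695971, minus strand: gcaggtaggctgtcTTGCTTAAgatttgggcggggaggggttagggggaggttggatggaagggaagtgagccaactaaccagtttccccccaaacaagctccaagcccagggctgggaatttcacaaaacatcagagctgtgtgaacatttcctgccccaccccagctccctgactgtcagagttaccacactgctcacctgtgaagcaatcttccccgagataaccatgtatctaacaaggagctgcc
S100a11, chr3:93520246-93520495, plus strand: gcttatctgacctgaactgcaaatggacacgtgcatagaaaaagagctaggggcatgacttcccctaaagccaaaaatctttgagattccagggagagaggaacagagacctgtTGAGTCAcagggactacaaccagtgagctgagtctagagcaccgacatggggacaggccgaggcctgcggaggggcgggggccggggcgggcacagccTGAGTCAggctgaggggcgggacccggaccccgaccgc
The TATA box letters TATAAA began 30 bases upstream of the *S100a8* start, and the letters of a C/EBP site (TTGCNNAA) 236 bases upstream of the *S100a9* start. In *S100a9* the letters TATAAA began at the annotated first base itself, just past the stretch shown. *S100a11* held 2 matches to the AP-1 site TGANTCA, at 136 and 38 bases upstream. The TEAD letters GGAATG were in none of the 3 stretches. Among 32851 mouse promoters of 300 bases (250 before and 50 after the start), TATAAA was found in 13.6%, TTGCNNAA in 10.8%, TGANTCA in 7.81% and GGAATG in 14.7%. A match is a description of the letters and not evidence of a bound factor. The promoters of *S100a10* and *S100a14* were not printed.

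Levels were first compared between members per length of exon, as RPKM (reads scaled to gene length and library size). In MKα3− vehicle cells the annexin partner *S100a6* (calcyclin) was the most abundant at 1611 ± 251 RPKM (SD, n = 4). It was followed by *S100a11* (507 ± 55.3), *S100a14* (388 ± 98.7) and *S100a10* (314 ± 32.7), then by *S100a16* (99.4 ± 23.7). *S100a4* (23.9 ± 7.39), *S100a8* (13.2 ± 6.18) and *S100a9* (4.28 ± 2.94) were far lower, and *S100a13* (1.502 ± 0.362) and *S100a1* (1.11 ± 0.336) were lowest. The family thus fell into 5 abundant and 5 scarce genes. *S100a6* lay above all others in every library, whereas the ranges of *S100a11* and *S100a14*, of *S100a14* and *S100a10*, of *S100a8* and *S100a9*, of *S100a9* and *S100a13*, and of *S100a13* and *S100a1* overlapped in this group.

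In MKα3+ cells the means of *S100a10* (386 ± 33.0 RPKM in vehicle) and *S100a14* (339 ± 20.7 RPKM) stood in the other order, and so did those of *S100a8* (26.2 ± 18.7 RPKM) and *S100a4* (26.1 ± 2.51 RPKM) and of *S100a1* (1.49 ± 0.445 RPKM) and *S100a13* (1.46 ± 0.278 RPKM). The ranges of all 3 pairs overlapped. The summed level of the 10 genes was 2403 ± 388 CPM in MKα3− vehicle, 2925 ± 696 CPM in MKα3− LN332, 2536 ± 124 CPM in MKα3+ vehicle and 2575 ± 187 CPM in MKα3+ LN332 libraries (SD, n = 4 each). *S100a6* alone made up 52.4% to 54.3% of that sum on average.

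**Figure D1:**
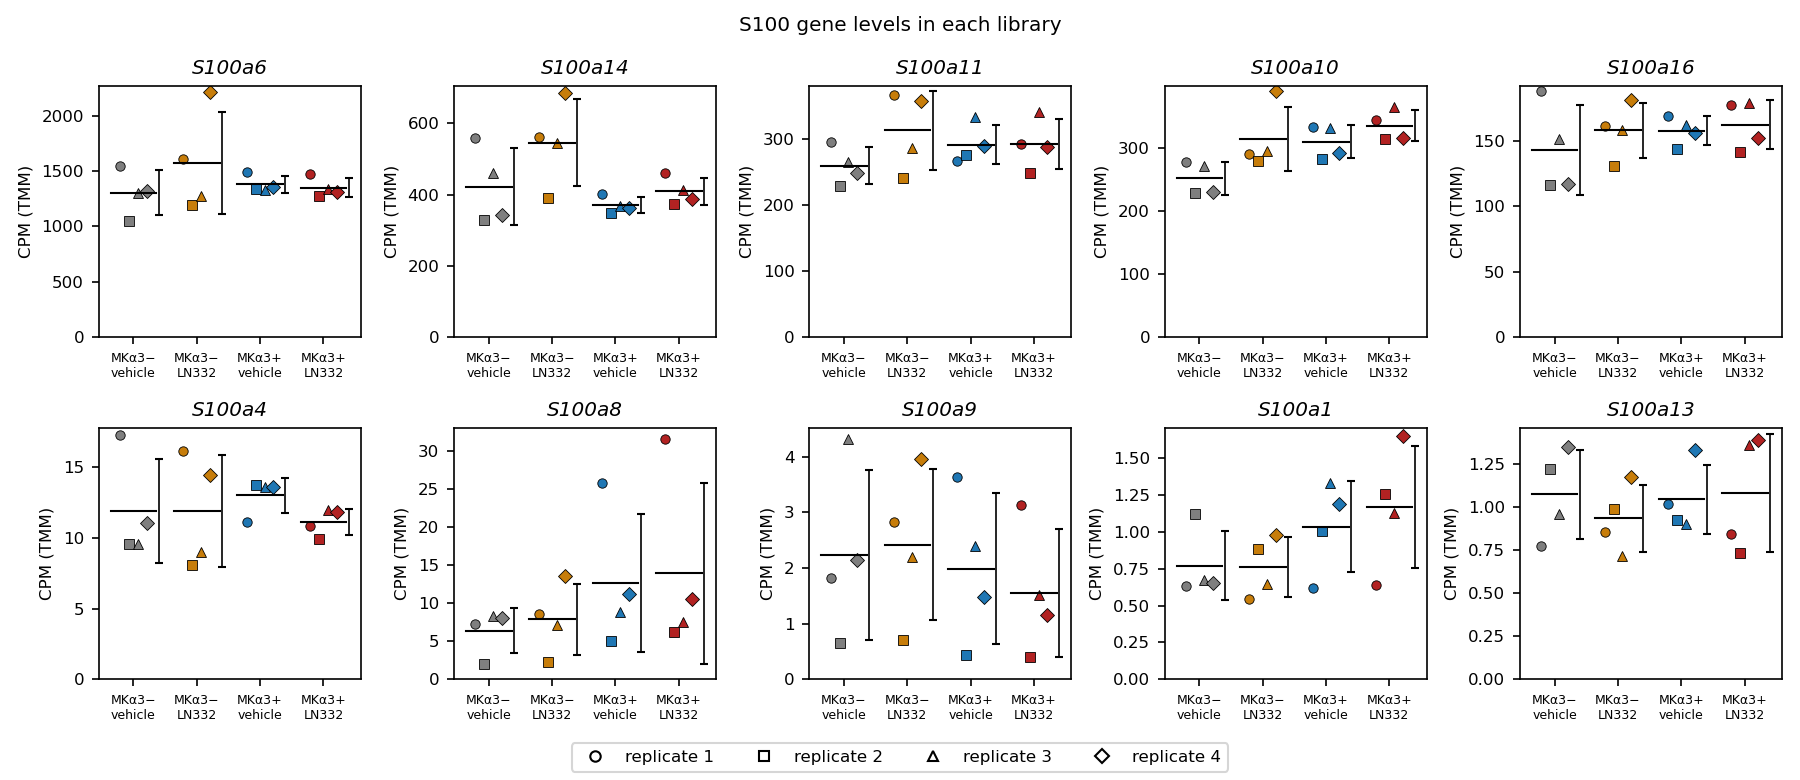
Level of each of the 10 S100 genes in each library (y axis, CPM after TMM scaling, from 0) by group (x axis), with replicates 1 to 4 as circle, square, triangle and diamond, the group mean as a line and the SD (n = 4) as a bar beside it. The group clouds overlap for 9 of the 10 genes in MKα3+ against MKα3− vehicle, *S100a10* being the exception, and *S100a8* and *S100a9* spread most.

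To ask whether restored α3β1 or added LN332 changed the family, each gene was tested by limma-voom over all 14474 genes, and a gene was called at an adjusted p under 0.05 with a log2 fold change beyond 0.5. In this fit none of the 10 S100 genes was called in any of the 6 comparisons. Between the lines in vehicle 0 of 10 were called against 18.5% of all genes, and between the lines in LN332 0 of 10 against 20.6%. For LN332 against vehicle, 0 of 10 were called in MKα3− cells (0.304% of all genes), 0 of 10 in MKα3+ cells (0.187%, or 1.51% in a fit blocked on replicate number) and 0 of 10 averaged over both lines (1.35%). The difference between the LN332 responses of the lines was called for 0 of 10 members and 0% of all genes. edgeR likewise called 0 members in each of the 6 comparisons, against 18.3%, 21.1%, 0.325%, 0.0276%, 1.36% and 0% of all genes in the same order. DESeq2 also called 0 members, against 19.4%, 21.9%, 1.14%, 0.85%, 1.88% and 0%. The groups were free of overlap for 1 of 10 members, *S100a10*, between the lines in vehicle (32.9% of all genes) and for LN332 in MKα3− cells (4.95%), and for 0 of 10 members between the lines in LN332 (26.5% of all genes) and for LN332 in MKα3+ cells (9.66%).

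At an unadjusted limma-voom p under 0.05 there was 1 member between the lines in vehicle (*S100a10*, against 39% of all genes), 1 between the lines in LN332 (*S100a14*, against 42.5%), 2 for LN332 in MKα3− cells (*S100a10* and *S100a14*, against 14%), 0 for LN332 in MKα3+ cells (9.59%), 2 for LN332 averaged over the lines (the same pair, against 19.8%) and 0 for the difference of responses (1.13%). Each line comparison shares its libraries with the LN332 comparisons, so these results are not separate evidence. The members' median log2 fold change was 0.17 between the lines in vehicle (0.0056 over all genes) and 0.01 in LN332 (0.0062). It was 0.17 for LN332 in MKα3− cells (-0.0056) and 0.03 for LN332 in MKα3+ cells (-0.0067). In the last of these the direction turned with the scaling, since scaling by library size alone gave -0.05, with the median of all genes at -0.0847. Scaling by library size alone also shifted the median of all genes for LN332 in MKα3− cells to -0.0823, and the members' median there to 0.10.

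**Figure D2:**
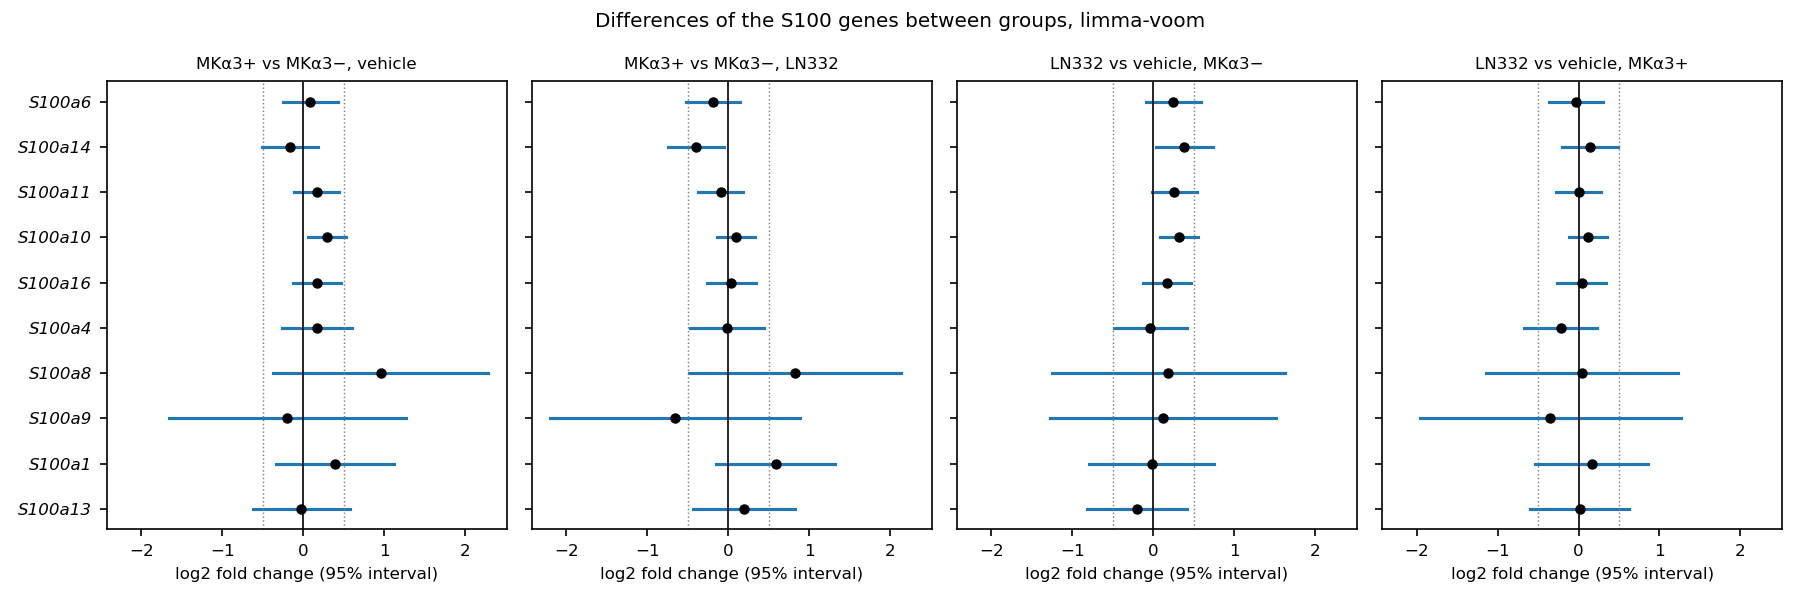
Log2 fold change of each S100 gene (points) with its 95% interval (bars) from limma-voom in 4 comparisons, the dotted lines marking the minimum change of 0.5 in either direction. Intervals are narrowest for the 5 abundant genes, wider for *S100a4* and widest for *S100a8* and *S100a9*.

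The 5 abundant members (*S100a6*, *S100a10*, *S100a11*, *S100a14* and *S100a16*) gave the tightest limits. Their 95% intervals ran from 0.703-fold to 1.45-fold for MKα3+ against MKα3− in vehicle and from 0.595-fold to 1.26-fold in LN332. For LN332 against vehicle they ran from 0.912-fold to 1.66-fold in MKα3− and from 0.775-fold to 1.40-fold in MKα3+ cells.

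*S100a10* encodes p11, which pairs with annexin A2 and brings plasminogen and its activators to the cell surface. It stood at 278, 228, 271 and 231 CPM in MKα3− vehicle libraries (replicates 1 to 4) and at 333, 282, 332 and 292 CPM in MKα3+ vehicle libraries. Every MKα3+ value lay above every MKα3− value, by a narrow margin. The means were 252 ± 26.2 and 309.6 ± 26.4 CPM (SD, n = 4), and the log2 fold change was 0.30 (SE 0.11, limma-voom adjusted p = 0.0540, exact two-sided permutation p = 0.0286, the smallest that 4 against 4 libraries allow). Of all genes, 17.2% were higher without overlap in this comparison. DESeq2 gave an adjusted p of 0.0441 for it, but the change was under the minimum of 0.5.

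With LN332, *S100a10* stood at 291, 279.7, 295 and 389.7 CPM in MKα3− cells. These 4 libraries also lay above the 4 vehicle libraries, replicate 4 far above the rest. The log2 fold change was 0.32 (SE 0.11, limma-voom adjusted p = 0.231, exact permutation p = 0.0286), and 2.29% of all genes were higher without overlap. In MKα3+ cells LN332 libraries held 344, 313, 365 and 316 CPM, overlapping the vehicle range, with a log2 fold change of 0.11 (limma-voom adjusted p = 0.872). The difference between these responses was -0.20 (95% interval -0.54 to 0.13, limma-voom adjusted p = 0.9999), so a response particular to 1 line was not shown.

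*S100a14*, an epithelial member, gave 558, 329, 461 and 343 CPM in MKα3− vehicle and 562, 392, 545 and 686 CPM in MKα3− LN332 libraries. MKα3+ libraries were closer together, at 401, 348, 368 and 362 CPM in vehicle and 461, 375, 412 and 388 CPM in LN332. With LN332 all 4 MKα3+ libraries lay below 3 of the 4 MKα3− libraries, the remaining MKα3− library (replicate 2) lay among them, and the log2 fold change between the lines was -0.40 (SE 0.17, limma-voom adjusted p = 0.0752). DESeq2 gave an adjusted p of 0.0409 for it, and limma-voom blocked on replicate number 0.0204, but the change was under the minimum of 0.5. Of the fits that each left out a single library, only that without replicate 2 of MKα3− LN332, the low library, called it (-0.55, limma-voom adjusted p = 0.0150). In MKα3− cells LN332 against vehicle gave a log2 fold change of 0.38 (SE 0.17, limma-voom adjusted p = 0.321).

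*S100a6* held 1545, 1047, 1303 and 1318 CPM in MKα3− vehicle and 1605, 1193, 1275 and 2208 CPM in MKα3− LN332 libraries. In MKα3+ cells it held 1491, 1342, 1324 and 1356 CPM in vehicle and 1469.7, 1275, 1339 and 1309 CPM in LN332 libraries. The 4 groups overlapped, and replicate 4 of MKα3− LN332 was the highest library for *S100a6*, *S100a10* and *S100a14*. The log2 fold changes of *S100a6* ran from -0.19 to 0.25 over the 4 comparisons of groups, with limma-voom adjusted p from 0.395 to 0.984. *S100a11*, a partner of annexin A1 and a part of the cornified envelope, had group means of 259, 313, 291 and 292 CPM in the order MKα3− vehicle, MKα3− LN332, MKα3+ vehicle and MKα3+ LN332. *S100a16* had means of 143, 158, 158 and 162 CPM in that order. Neither gene separated any of these groups.

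*S100a4* binds non-muscle myosin IIA and is linked to cell motility. It held 17.3, 9.60, 9.56 and 11.05 CPM in MKα3− vehicle and 11.1, 13.7, 13.6 and 13.6 CPM in MKα3+ vehicle libraries. Replicate 1 was thus the highest library in the null and the lowest in the rescued cells. The log2 fold change was 0.17 (SE 0.21, limma-voom adjusted p = 0.581). LN332 libraries held 16.1, 8.09, 9.01 and 14.4 CPM in MKα3− and 10.8, 9.90, 11.9 and 11.8 CPM in MKα3+ cells, overlapping the vehicle groups.

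*S100a1*, known from muscle, and *S100a13*, which takes part in the release of FGF1, had 14 to 44 and 18 to 39 counts per library. Their 95% intervals together spanned 0.651-fold to 2.19-fold between the lines in vehicle and 0.567-fold to 1.68-fold for LN332 in MKα3− cells. Folds within the interval of each gene were not excluded.

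The calgranulins were scarce and varied most. *S100a8* held 7.30, 1.97, 8.39 and 8.01 CPM in MKα3− vehicle and 25.8, 5.01, 8.85 and 11.2 CPM in MKα3+ vehicle libraries (replicates 1 to 4). The MKα3+ value was higher for each replicate number, but the groups overlapped because replicate 2 was low and replicate 1 of the rescued cells was high. The means were 6.42 ± 3.002 and 12.7 ± 9.10 CPM (SD, n = 4), and the log2 fold change was 0.96 (SE 0.63, 95% interval -0.37 to 2.29, limma-voom adjusted p = 0.277, exact permutation p = 0.229). With LN332 *S100a8* held 8.57, 2.26, 7.14 and 13.6 CPM in MKα3− and 31.6, 6.17, 7.55 and 10.5 CPM in MKα3+ libraries, with a log2 fold change between the lines of 0.82 (SE 0.62, limma-voom adjusted p = 0.338). The call depended on the fit. Blocked on replicate number, which the labels do not pair, *S100a8* was called in vehicle (0.98, limma-voom adjusted p = 0.0176, beside 21.1% of all genes) and in LN332 (0.79, adjusted p = 0.0439, beside 23.4%).

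*S100a9*, the partner chain of S100A8, held 1.82, 0.644, 4.32 and 2.14 CPM in MKα3− vehicle and 3.64, 0.441, 2.39 and 1.48 CPM in MKα3+ vehicle libraries, from 11 to 122 counts. With LN332 it held 2.83, 0.706, 2.19 and 3.96 CPM in MKα3− and 3.13, 0.406, 1.52 and 1.16 CPM in MKα3+ libraries. All 4 groups overlapped. The log2 fold change between the lines was -0.19 in vehicle (95% interval -1.66 to 1.27, limma-voom adjusted p = 0.866) and -0.66 in LN332 (adjusted p = 0.533). Folds from 0.317 to 2.41 in vehicle were thus not excluded. For LN332 against vehicle, the calgranulin intervals ran from 0.411-fold to 3.08-fold in MKα3− and from 0.258-fold to 2.39-fold in MKα3+ cells.

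The ratio of the 2 chains was higher in MKα3+ than in MKα3− libraries, a measure chosen after the values were seen and given without a test. In MKα3− vehicle libraries the *S100a8* count was 4.00, 3.05, 1.94 and 3.74 times the *S100a9* count, and in MKα3− LN332 libraries 3.03, 3.20, 3.26 and 3.44 times. In MKα3+ cells the ratios were 7.10, 11.4, 3.70 and 7.59 in vehicle and 10.1, 15.2, 4.97 and 9.06 in LN332. The geometric mean ratio was 2.25-fold higher in MKα3+ than in MKα3− vehicle and 2.82-fold higher in LN332, and the MKα3+ ratio was higher for 4 of 4 replicate numbers in both media. Leaving out any single library kept these folds between 1.90 and 2.77 in vehicle and between 2.38 and 3.46 in LN332. Without the 3 libraries of high *Lyz2* they were 2.93 and 2.83. MKα3+ vehicle replicates 1 and 2, which stayed in, held 45.3 and 53.2 CPM of *Lyz2*, against 4.92 to 34.8 CPM in MKα3− vehicle. Leaving those libraries out thus did not even out *Lyz2* RNA between the lines. The largest ratios rest on 11 and 10 *S100a9* counts.

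**Figure D3:**
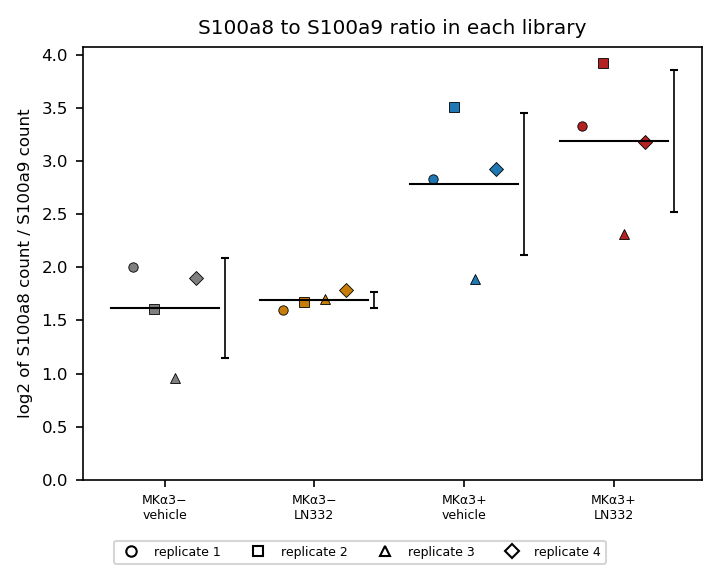
Log2 ratio of the *S100a8* count to the *S100a9* count in each library (y axis) by group (x axis), with replicates as symbols, the group mean as a line and the SD (n = 4) as a bar. All 4 MKα3− LN332 ratios lie below all 4 MKα3+ LN332 ratios, whereas the vehicle groups overlap through replicate 3 of MKα3+.

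Myeloid cells also make both chains, so the levels were set beside the macrophage markers. In the 3 libraries of high *Lyz2*, *S100a8* stood at 8.85 to 11.2 CPM, within the 1.97 to 31.6 CPM of the other 13, and *S100a9* at 1.16 to 2.39 CPM, within 0.406 to 4.32 CPM. The library with the most *S100a8*, replicate 1 of MKα3+ LN332 at 31.6 CPM, had 4.498 CPM of *Lyz2*. *Ltf*, another of the listed myeloid markers, was highest in that library (31.2 CPM) and in replicate 1 of MKα3+ vehicle (28.1 CPM). The latter held the next most *S100a8* (25.8 CPM). In MKα3− cells *Ltf* was highest in replicates 1 (vehicle) and 3 (LN332), and *S100a8* in replicates 3 and 4. Which cells the calgranulin RNA came from was not tested. *Lcn2*, an antimicrobial gene of stressed keratinocytes, shared the low replicate 2 of the calgranulins but not their highest replicate in MKα3− cells. It was lowest in replicate 2 of each group (3.46 to 7.02 CPM) and highest in replicate 1 (44.2 to 58.3 CPM).

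**Figure D4:**
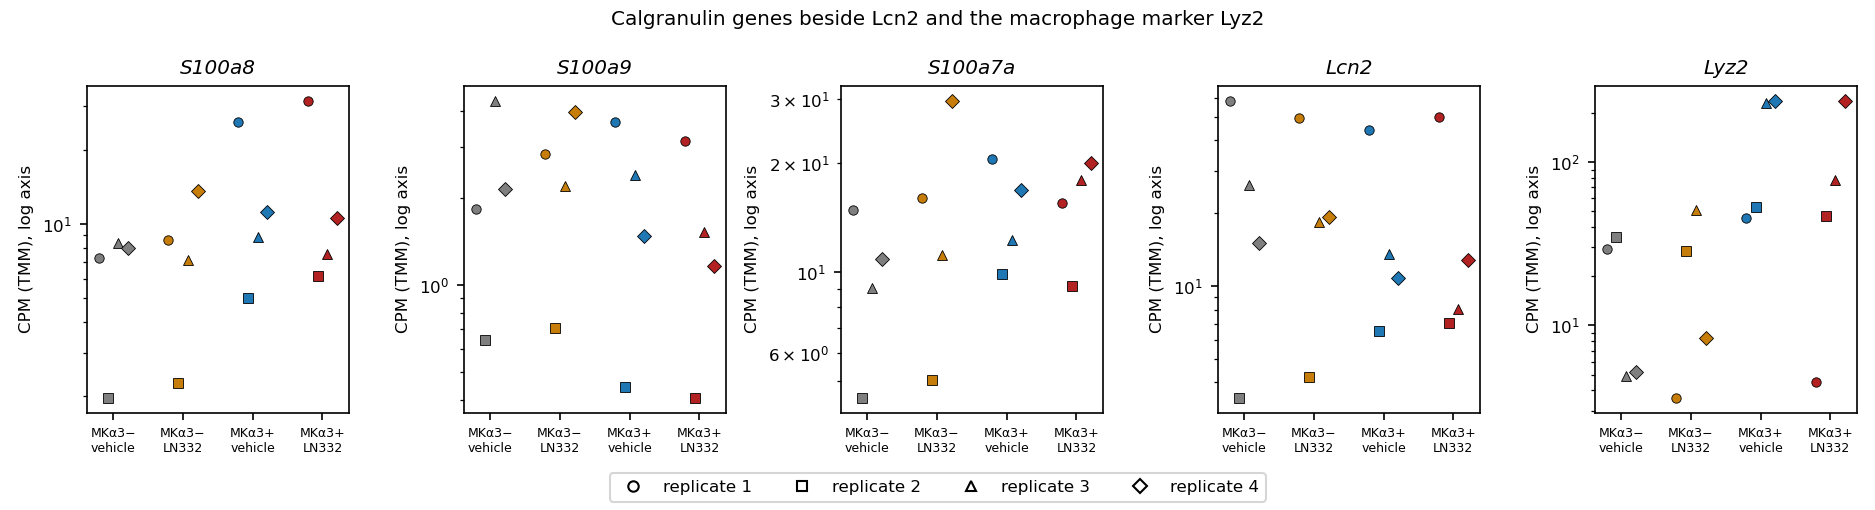
Levels in each library (y axes, CPM after TMM scaling on a log axis, with its own range in each panel) of *S100a8*, *S100a9*, the related *S100a7a*, *Lcn2* and the macrophage marker *Lyz2* by group (x axis), with replicates as symbols. Replicate 2 is lowest in each group for the first 4 genes, whereas *Lyz2* is highest in MKα3+ vehicle replicates 3 and 4 and MKα3+ LN332 replicate 4.

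The spread itself set the calgranulins apart. The pooled SD of log2 CPM within groups was 1.03 for *S100a8* and 1.15 for *S100a9*, against a median of 0.21 over all genes and against 0.09 and 0.20 from counting error alone. Among genes with a mean count within 2-fold of their own, 99.4% of 2448 varied less than *S100a8* and 98.0% of 2011 less than *S100a9*. The other members had SDs from 0.16 (*S100a10*) to 0.45 (*S100a1*, 0.29 from counting error alone). A group of 5 members, *S100a8*, *S100a9*, *S100a10*, *S100a14* and *S100a16*, were lowest in replicate 2 of all 4 groups, a pattern shown by 2.39% of all genes. *S100a1* was lowest in replicate 1 of all 4 groups and *S100a13* highest in replicate 4. Replicate 2 was singled out after its values were seen, and 14.3% of all genes had 1 same replicate lowest in all 4 groups, whichever it was, and 12.3% 1 same replicate highest. What the replicate number stands for is not given in the sources used here.

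**Figure D5:**
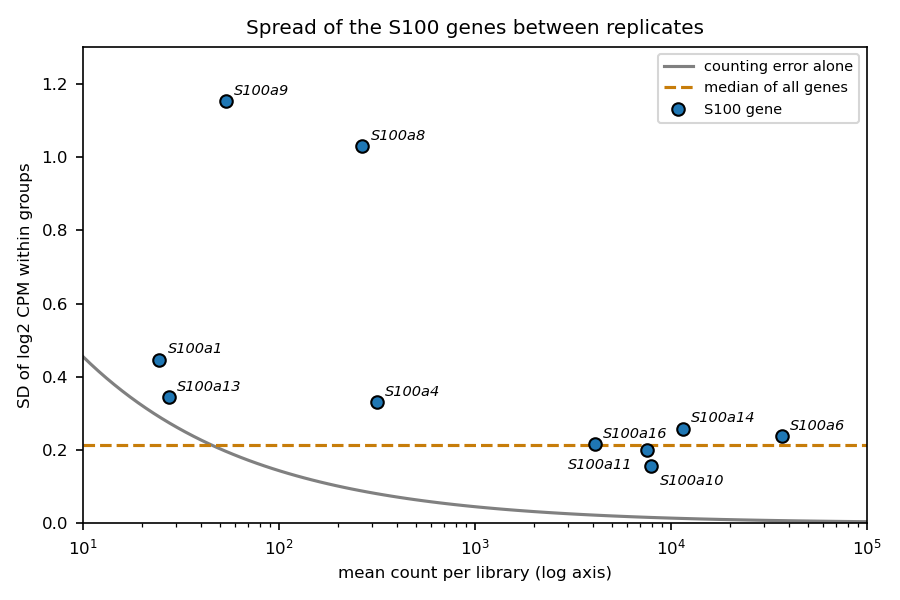
Pooled SD of log2 CPM within groups (y axis) against the mean count per library (x axis, log scale) for the 10 S100 genes, with the SD that counting error alone gives as a grey curve and the median of all genes as a dashed line. *S100a8* and *S100a9* lie at 1.03 and 1.15, whereas the other 8 lie at 0.45 or below.

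Further genes whose symbols begin with S100 were measured too. *S100a7a*, the mouse relative of psoriasin, held 4.51 to 29.6 CPM, was lowest in replicate 2 of all 4 groups and varied more (SD 0.73) than 98.7% of 2944 genes of like count. Its log2 fold change between the lines in vehicle was 0.68 (limma-voom adjusted p = 0.269). Blocked on replicate number it was called there (0.61, limma-voom adjusted p = 0.0365, beside 21.1% of all genes). *S100a3* (8.55 to 15.9 CPM) and *S100a2* (1.12 to 3.06 CPM) were called neither without nor with the block. *S100a11-ps* had 3 to 23 counts and, being a near copy of *S100a11*, is uncertain. *S100pbp*, which encodes a binding protein of an S100 and not an S100 protein, had a log2 fold change of -0.32 with LN332 averaged over the lines (limma-voom adjusted p = 0.0457), short of the minimum of 0.5.

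Known partners and receptors of S100 proteins were examined as a list of 20 genes, of which 19 were measured. Between the lines in vehicle 4 were called higher and 1 lower in MKα3+ cells, with a median log2 fold change of 0.25. Of all genes 10.9% were called higher and 7.56% lower in this comparison, so the 5 of 19 are to be read against 18.5%. The plasminogen activators moved most. *Plau*, urokinase, rose from 596 ± 209 to 1431 ± 187 CPM (SD, n = 4, log2 fold change 1.31, limma-voom adjusted p = 0.000361), and *Plat*, tissue plasminogen activator, rose by 0.83 on the log2 scale (adjusted p = 0.0223). The receptors *Mcam* (0.69) and *Tlr4* (0.63) were higher, and *Bsg*, which encodes basigin, was lower (-0.58). The direct partners *Anxa2* (0.03) and *Anxa1* (-0.03) were not called. In LN332 5 of the 19 were called higher in MKα3+ cells and 0 lower, beside 11.7% and 8.92% of all genes. Among them were *Plau*, higher by 1.81 on the log2 scale, and *Myh9*, the heavy chain that S100A4 binds, by 0.55. Without the 3 libraries of high *Lyz2*, *Mcam* was the one of the 5 vehicle calls that did not pass, at a log2 fold change of 0.78 (limma-voom adjusted p = 0.0805).

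For LN332 against vehicle no partner was called in either line alone. In the fit blocked on replicate number, 2 were called in MKα3+ cells, *Anxa1* (log2 fold change 0.67, limma-voom adjusted p = 0.00250) and *Plau* (0.62, adjusted p = 0.0184), against adjusted p = 0.0555 and 0.388 without it. Averaged over the lines, *Anxa1* was called higher with LN332 (0.55, limma-voom adjusted p = 0.00537). Its mean CPM without and with LN332 was 4094 ± 711 and 5460.4 ± 657 in MKα3− and 3988 ± 474 and 6307 ± 509 in MKα3+ cells (SD, n = 4), whereas its S100 partner *S100a11* had a log2 fold change of 0.13 (adjusted p = 0.485). *Anxa2* was not called with LN332 in either line or averaged over them. Its mean CPM without and with LN332 was 1743 ± 188 and 2350.2 ± 462 in MKα3− and 1771 ± 45.3 and 2267 ± 67.6 in MKα3+ cells (SD, n = 4).

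Genes that rise in wounded epidermis beside the calgranulins were measured for 15 of 19. Between the lines in vehicle 5 were called higher in MKα3+ cells and 0 lower, with a median log2 fold change of 0.49, beside 10.9% and 7.56% of all genes. They were *Saa3* (2.20), *Il1b* (1.10), *Cxcl5* (0.998), *Krt17* (0.78) and *Il1a* (0.64). Without the 3 libraries of high *Lyz2* 2 were called, *Saa3* (1.28) and *Krt17* (0.95). The log2 fold changes of the others were then 0.57 for *Il1a* (limma-voom adjusted p = 0.109), 0.58 for *Cxcl5* (adjusted p = 0.114) and 0.55 for *Il1b* (adjusted p = 0.297). *Saa3* stood at 51.1 to 54.2 CPM in those libraries against 4.11 to 15.1 CPM in the other 13. MKα3+ vehicle replicates 1 and 2, which stayed in, still held more *Lyz2* than any MKα3− vehicle library. The part of myeloid RNA in these calls was not tested further. In LN332 4 were called higher and 1 lower in MKα3+ cells, beside 11.7% and 8.92% of all genes. The lower gene was *Krt6a*, a keratin of wounded epidermis (-0.89). With LN332 averaged over the lines *Krt16* (0.55) and *Il1a* (0.54) were higher.

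Of the epidermal differentiation complex, the skin barrier genes that lie between the S100 clusters, 13 of 51 listed symbols were in the table. The authors had filtered that table on low CPM. The list also held *Loricrin* under its older symbol *Lor*, which was counted as absent. Of the 13 measured, 3 were called higher in MKα3+ vehicle cells and 0 lower (10.9% and 7.56% of all genes). They were the cornified envelope gene *Lce1g* (2.76), the hair follicle gene *Tchh* (1.55) and *Loricrin* (0.60). Among 37 non-S100 genes within 1 Mb of a member, 7 were called higher and 3 lower, with a median log2 fold change of -0.03, again beside 10.9% and 7.56% of all genes. *Lce1g* and *Tchh* were counted among the higher here too, so the lists share these calls. *Tdrkh* (2.60) and *Kcnn3* (1.90) were higher and *Rab13* (-1.19) lower. Without the 3 libraries of high *Lyz2*, 13 libraries being left, *Loricrin* (0.53, limma-voom adjusted p = 0.0992) and *Kcnn3* (1.86, adjusted p = 0.0554) no longer passed, with folds of like size. The same held for the vehicle calls of *Slc27a3* (-0.61, and -0.72 without them) and *Npr1* (0.70, and 0.73 without them). In LN332 6 neighbours were called higher and 3 lower between the lines, beside 11.7% and 8.92% of all genes. With LN332 against vehicle 0 were called in either line, and averaged over the lines *Slc27a3* (-0.52) and *Npr1* (-0.69) were lower.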

How the data were processed

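RNA-seq counts of 16 libraries (4 groups of 4) were analysed. The authors aligned reads to mm10 with Rsubread, counted them per Entrez gene with featureCounts and deposited raw counts after a filter on low CPM. Counting error is small for the abundant S100 genes and limits those under 50 counts.

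Groups came from the sample labels. Counts were scaled by TMM and fitted by limma-voom (R 4.3.3, limma 3.58.1, edgeR 4.0.16) with all 16 libraries in 1 model, a coefficient per group and Benjamini-Hochberg adjustment over 14474 genes. A filter of CPM above 0.5 in at least 3 libraries removed 0 genes. Calls needed both an adjusted p under 0.05 and a log2 fold change over 0.5 in size (an adjusted p under 0.05 alone for the difference of responses). edgeR quasi-likelihood and DESeq2 1.42.0 tests, other scalings, filters and minimum folds, sample weights, a replicate block and leaving out each library were alternatives. DESeq2 gave some scarce genes no adjusted p, which was left missing. RPKM used GENCODE M21 exon lengths. Exact permutation tests used all 70 splits of 8 libraries. The script was tested on simulated counts.

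Same-numbered MKα3+ libraries deviated together from their group means (correlations 0.193 to 0.615 over the 4 pairs of vehicle and LN332), with 7 of 8 closest to their own number. There the number was taken to pair them, from the data and not from the labels. Between the lines in vehicle 7 of 8 libraries were also closest to their own number, but the lowest correlation was 0.0798. No replicate pair agreed within sampling noise.

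Members and lists were chosen with earlier results of these data known. Named were all genes whose symbol starts with S100, up to 6 of each list with the largest change among those called between the lines in vehicle, and list genes called with LN332. A neighbouring gene that this rule names is not reported here. Rules for genes of like pattern named none, since no member was called. *Lcn2*, *Anxa2*, *Myh9*, *Krt6a* and the markers were named outside it, after their values were seen.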

Additional observations from a re-analysis of the deposited data

Results flagged for a closer look

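Among 60 groups of 4 libraries (15 S100-named genes in 4 groups), 8 held a library whose gap to the nearest other was too large a share of the group's range by Dixon's 95% critical value, where chance flags about 1 in 20, or 3. *S100a1* stood at 1.12 CPM in MKα3− vehicle replicate 2, against 0.632 to 0.673 CPM in the others. *S100a8* stood at 1.97 CPM in the same library, against 7.30 to 8.39 CPM. *S100a4* stood at 11.1 CPM in MKα3+ vehicle replicate 1, against 13.6 to 13.7 CPM, and *S100a3* at 12.9 CPM there, against 14.6 to 14.9 CPM. *S100a10* stood at 389.7 CPM in MKα3− LN332 replicate 4, against 279.7 to 295 CPM. *S100pbp* had such a library in 3 groups, at 11.3 CPM in MKα3− vehicle replicate 1 (others 12.1 to 12.3), at 12.4 CPM in MKα3− LN332 replicate 3 (others 8.54 to 9.14) and at 12.3 CPM in MKα3+ vehicle replicate 4 (others 13.8 to 14.1).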

How the results depend on the processing

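Of 1540 values of the 10 S100 members under alternatives, 1537 kept their direction and call or were uncalled in both. A further 3 became called, 0 lost a call and 0 called values reversed. Uncalled values took the other sign in 87 cases. Group levels moved by less than 1 SD in 240 of 240 cases. With the replicate number as a block, 1 member was called between the lines in vehicle (*S100a8*, log2 fold change 0.98, limma-voom adjusted p = 0.0176, where 21.1% of all genes were called) and 1 in LN332 (*S100a8*, 0.79, adjusted p = 0.0439, 23.4%). Leaving out 1 library gave 0 to 1 members in LN332, and without MKα3− LN332 replicate 2 that was *S100a14* (-0.55). These numbers are shared by samples that the labels do not pair, and correlations ran from -0.0451 to 0.552 in the 3 comparisons other than LN332 in MKα3+ cells, with 7, 6 and 5 of 8 libraries closest to their own number (between the lines in vehicle and in LN332, and LN332 in MKα3− cells). The block changed no other member call, but it also called *S100a7a*, not a member, between the lines in vehicle (0.61, limma-voom adjusted p = 0.0365). Where the block changed the number of list genes called, partners came to 6 (lines, LN332) and 2 (LN332, MKα3+). Stress genes came to 7 and 8 (lines, vehicle and LN332) and 2 (LN332, MKα3−). Differentiation complex genes came to 7 and 8 (lines, vehicle and LN332) and 1 (LN332 averaged). Neighbouring genes came to 13 and 11 (lines, vehicle and LN332) and 3 (LN332 averaged). DESeq2 called 1 partner and 1 stress gene (LN332, MKα3+) and 1 stress gene (LN332, MKα3−). Without the 3 libraries of high *Lyz2*, an alternative chosen after seeing the data, 2 stress genes were called between the lines in vehicle. Over all genes, LN332 in MKα3− cells gave 44 calls (DESeq2 165, block 259) and in MKα3+ cells 27 (edgeR 4, DESeq2 123, block 218). Where not stated, the cause was not tested. Depth limits *S100a1* and *S100a13*, whose lowest libraries held 14 and 18 counts, whereas the spread of *S100a9* (SD 1.15) is far above its counting error (0.20).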
